A study of Mus musculus with 2 samples.

Results

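The Il1r2+ dendritic cells described here were the cells of mouse spleen that carried at least 2 UMIs of Il1r2, the gene of the interleukin-1 receptor type 2, and met a set of limits meant to leave out other cell classes. A UMI is a molecular tag, so that each count stands for 1 captured RNA molecule. The limits were 0 UMIs of Clec9a, of Xcr1 and of Cd3e, fewer than 2 of Ccr7, fewer than 3 of C1qb and of Cd79a, fewer than 10 of S100a9, and fewer than 6 of Top2a and Mki67 together. They were met by 1056 cells of sample 1 and 862 of sample 2, of which 251 and 270 held 2 or more Il1r2 UMIs. The Il1r2+ cells were thus 521 of 6393 cells, a share of 7.59% in sample 1 (95% exact Clopper-Pearson interval 6.71 to 8.54%) and 8.75% in sample 2 (7.78 to 9.8%). These intervals cover counting error only. The cells were chosen by these measured counts, which are given below as a description and not as a finding.

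Both samples were CD11c+ cells enriched with magnetic beads from the spleens of wild-type mice on a C57BL/6J background, with no treatment named, and both were captured in the same BD Rhapsody run. By the study's methods its mice were adults of both sexes, and neither the sex behind each sample nor whether the samples are separate animals is given in the sources used here, so that every p-value measures the spread between these 2 samples, which may be technical. Sample 1 held 3308 cells and 46953398 UMIs, sample 2 held 3085 cells and 43137746 UMIs, and the samples shared 0 cell numbers. The cells set beside the Il1r2+ cells met the same limits, had 0 Il1r2 UMIs and held at least 1 UMI of Clec4a4, Clec10a or Cd209a, surface lectins of conventional type 2 dendritic cells (cDC2s). There were 483 of these Il1r2- cDC2s in sample 1 and 317 in sample 2. Of these, 209 and 145 held Clec4a4 alone (Clec4a4-only cells), and 131 and 89 held Clec10a or Cd209a without Clec4a4 (Clec10a/Cd209a-only cells).

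IL-1R2 is known as a decoy receptor. It binds interleukin-1 but lacks the intracellular domain that passes on the signal, so that a cell bearing or shedding it takes up the cytokine without answering it. Interleukin-1β itself is made as a precursor and is cut by caspase-1 once an inflammasome has formed around a sensor such as NLRP3 or AIM2. Splenic cDC2s present antigen to CD4+ T cells and are usually divided into a Notch-dependent type, which carries ESAM and CD4, and a type that shares genes with monocytes.

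The promoter windows of Il1r2 and of Ifit1, an interferon-induced gene that marked these cells in an earlier clustering of the same data, are shown because the first gene defines the cells and the second was one of their markers. Both come from RefSeq on GRCm38.p6, run from 250 bases before to 50 after the transcript start, and lie on the plus strand at chr1:40085843-40086142 and chr19:34640639-34640938. Capitals mark the E-box CACGTG in the first, and in the second the interferon-stimulated response element (ISRE), searched on both strands as GAAANNGAAA and found here on the minus strand.
Il1r2: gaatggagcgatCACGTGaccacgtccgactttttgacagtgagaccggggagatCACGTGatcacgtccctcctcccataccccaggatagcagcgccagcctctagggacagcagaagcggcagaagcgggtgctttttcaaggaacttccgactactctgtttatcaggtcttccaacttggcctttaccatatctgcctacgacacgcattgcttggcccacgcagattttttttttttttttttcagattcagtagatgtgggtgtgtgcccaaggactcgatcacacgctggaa
Ifit1: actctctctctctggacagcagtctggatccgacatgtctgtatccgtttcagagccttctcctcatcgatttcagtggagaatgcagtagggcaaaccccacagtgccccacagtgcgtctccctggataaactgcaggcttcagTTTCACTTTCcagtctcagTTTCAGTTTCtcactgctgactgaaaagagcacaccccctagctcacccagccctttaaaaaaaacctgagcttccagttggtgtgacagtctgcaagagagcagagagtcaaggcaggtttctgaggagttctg
The Il1r2 window held 2 E-boxes, with first bases at -238 and -195 from the transcript start, and 0 matches to the ISRE, to the AP-1 site TGANTCA or to the NF-κB form GGGANNTTCC. The E-box was chosen as a motif after the sequence had been seen, and 8.09% of 27025 genes had one in such a window. The Ifit1 window held 2 ISREs, at -104 and -85, a motif present for 3.99% of all genes and for 29 of 49 genes (59.2%) of the list of interferon-response genes used below. The windows of Il1b, Nlrp3, Aim2, Mefv, Nlrp1a, Oasl2 and Epsti1 held neither the ISRE nor the AP-1 or NF-κB letters. A match is a description of letters and not of a bound site. In the GENCODE vM21 annotation of GRCm38 the Il1r2 gene spans chr1:40074079-40125231 on the plus strand, so that its RefSeq window lies inside the annotated gene, and Il1r1 follows at chr1:40225080-40317257.

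The selected cells carried the genes of dendritic cells at the level of the Il1r2- cDC2s, and the sums for other lineages lay above those cells for some and below for others. Levels are given as counts per 1000000 UMIs of the summed cells (CPM), sample 1 first. The 8 general dendritic cell genes summed to 41953 and 43480 CPM in the Il1r2+ cells, against 42106 and 43146 in the Il1r2- cDC2s, and the 10 cDC2 markers to 1410 and 1393 against 1353 and 1378. Zbtb46, a transcription factor of conventional dendritic cells, stood at 285 and 264 CPM, Itgax, the CD11c gene, at 948 and 900, and the cDC2 genes Sirpa and Irf4 at 338 and 299 and at 89.6 and 117. The 9 cDC1 markers, Clec9a and Xcr1 at 0 by the selection, summed to 1109 and 979 CPM against 982 and 967, and the 12 macrophage markers to 262 and 284 against 227 and 221. The 10 neutrophil markers summed to 72.8 and 53.3 against 63.4 and 49.3, with Ly6g alone at 0 in both samples. The 9 basophil and mast cell markers summed to 10.9 and 15.6 against 7.67 and 11.2. Of these, 7 were at 0 in the Il1r2+ cells, Mcpt8, Prss34, Cpa3, Fcer1a, Ms4a2, Gata2 and Il4. The 6 erythroid markers summed to 42.0 and 21.8 against 18.6 and 12.5. The cDC1, macrophage, neutrophil, basophil and mast cell, and erythroid sums were thus above those of the Il1r2- cDC2s in both samples. Their part in the results was not tested. The 9 T-cell markers summed to 24.2 and 30.1 CPM, and the 9 B-cell markers to 198 and 196 against 233 and 218 in the Il1r2- cDC2s. The doublet caller Scrublet marked 62 cells (0.970%) of the whole data set, and 0 of them were Il1r2+ cells.

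Il1r2 itself was unevenly spread over the selected cells. The median was 3 UMIs a cell in sample 1 and 4 in sample 2, the highest 29 and 43, and 82 (32.7%) and 80 (29.6%) of the cells stood exactly at the limit of 2 UMIs. Their summed level was 392 and 454 CPM, against 185 and 182 in the cells at 2 UMIs, just inside the limit, and 97.5 and 96.1 in the 152 and 124 cells at 1 UMI, just outside it. The Il1r2+ cells were somewhat deeper than the cells they were compared with, at a median of 11609 and 10730 UMIs against 10007 and 9653. Where every cell was thinned to 5000 UMIs before the limits were applied, the Il1r2+ cells made up 5.62% and 6.47% of the cells.

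Il1r2 was not restricted to the selected cells. In macrophage-like cells left out only by C1qb, a class taken here as the background of free RNA, 5.14% and 7.37% held an Il1r2 UMI at a median depth of 15011 and 15805 UMIs, and the level was 6.32 and 5.77 CPM. Cells left out only by Clec9a or Xcr1, genes of type 1 dendritic cells (cDC1s), stood at 38.7 and 39.5 CPM, with 18.0% and 22.3% of cells holding a UMI at a median depth of 13278 and 14695. Cells left out only by the cycling genes Top2a and Mki67 stood at 54.9 and 69.8 CPM, and those left out only by Ccr7, a gene of migratory dendritic cells, at 82.1 and 84.8. These 3 classes were thus above the macrophage-like cells in both samples and below the selected cells, whose level the limit on Il1r2 itself sets. Cells left out only by Cd3e, of T cells, or Cd79a, of B cells, varied between samples, at 69.1 and 14.2 CPM and at 49.2 and 11.1 CPM. Cells left out only by S100a9, a neutrophil gene, were as high as the selected cells, at 439 and 855 CPM, but numbered 9 and 22.

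**Figure D1:**
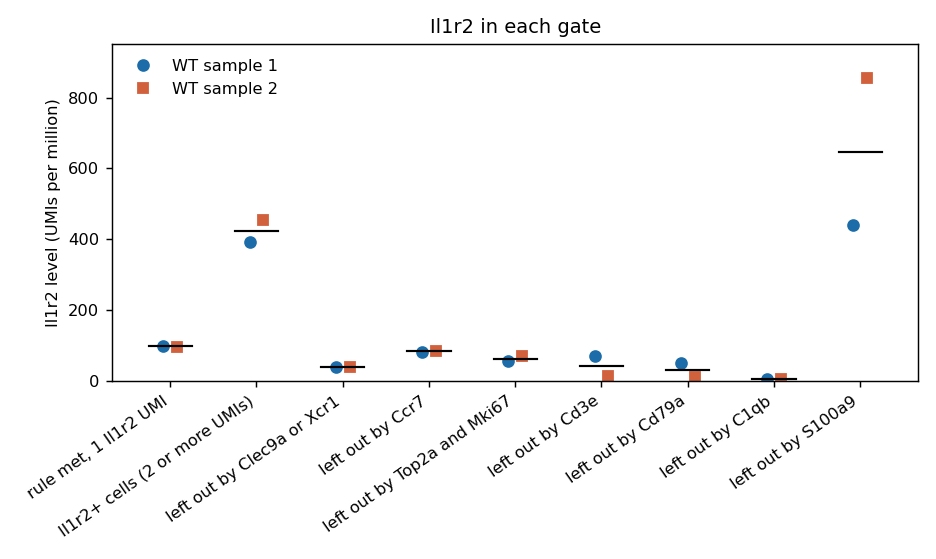
Il1r2 level, in CPM, in the Il1r2+ cells and in cells left out by 1 limit alone, with 1 point for each of the 2 samples. The Il1r2+ cells (392 and 454) and the few S100a9-rich cells (439 and 855) stood above the Ccr7 (82.1 and 84.8), cycling, and Clec9a or Xcr1 classes (38.7 and 39.5), and C1qb-rich cells were near 6.

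A larger share of the Il1r2+ cells than of cells without Il1r2 held Clec4a4 together with Clec10a or Cd209a in both samples. In sample 1, 37.5% of them held both (95% exact interval 31.4 to 43.8%), and in sample 2 41.1% (35.2 to 47.2%), against 21.9% (18.8 to 25.3%) and 17.7% (14.4 to 21.5%) of the cells that met the same limits with 0 Il1r2 UMIs. Thinning cells to 5000 UMIs left the groups as chosen on full counts. The shares were then 21.5% (16.5 to 27.3%) and 21.6% (16.7 to 27.1%) against 13.6% (10.8 to 16.7%) and 12.8% (9.74 to 16.5%). These intervals cover counting error over cells only, so that their overlap is no test between the groups. No test was made, and an exact permutation test of 2 samples against 2 cannot reach 0.05. Clec4a4 alone was found in 28.7% and 25.2% of the Il1r2+ cells, Clec10a or Cd209a alone in 20.7% and 19.6%, and none of these genes in 13.1% and 14.1%. Cells without Il1r2 held none of them in 26.0% and 32.3%, and those lectin-negative cells carried NK-cell markers at a sum of 1425 and 1775 CPM and T-cell markers at 197 and 501 CPM, so that the cells without Il1r2 included cells with genes of other lineages. With lectin-negative cells left out of both groups, 94 of 218 and 111 of 232 Il1r2+ cells held both. Of the Il1r2- cDC2s, 143 of 483 and 83 of 317 did so. Both lectin patterns were found among the Il1r2+ cells, but a lectin UMI alone does not assign a cell to a cDC2 type. Of 11 tested genes of the monocyte-like type, 8 were lower in the Il1r2+ cells than in the Clec10a/Cd209a-only cells in edgeR. There, 2.93% of all genes were lower. At the level of sums, Cd209a, the DC-SIGN homologue, stood at 338 and 305 CPM against 317 and 328 in the Il1r2- cDC2s and Clec4a4, an inhibitory lectin, at 143 and 134 against 161 and 161. Clec10a, a galactose-binding lectin, stood at 8.40 and 3.31 against 27.3 and 17.5. These genes were part of the selection of the Il1r2- cDC2s and were not tested.

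In all, 64 of 10322 genes tested were higher (0.620%) and 47 lower (0.455%) in the Il1r2+ cells than in the Il1r2- cDC2s (edgeR quasi-likelihood test, adjusted p below 0.05). Each of the 111 had the same direction in both samples. A call on the same sums makes this likely, as it does a lack of overlap between the groups, so that neither adds support. The share of all genes tested without overlap was not counted. With the sample as a block, which the design allows since both sums of a pair come from the same sample, the counts were 335 and 195. The 13 genes used for choosing cells or excluded with them were left out of every fit. The sums of the Il1r2- cDC2s include those of the Clec4a4-only and the Clec10a/Cd209a-only cells, and all 3 comparisons share the Il1r2+ sums, so that their results are not independent of each other.

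Il1b, the gene of interleukin-1β, the ligand that IL-1R2 binds, was among the genes higher in the Il1r2+ cells. It stood at 1518 and 1547 CPM in them and at 963 and 1077 in the Il1r2- cDC2s. The log2 fold change was 0.61 ± 0.06 (SE, n = 2 samples, edgeR adjusted p = 0.00074), and the groups did not overlap. Across 13 alternative settings with a test the log2 fold change lay between 0.51 and 0.77 and stayed past the threshold in each. Against the Clec4a4-only cells, at 644 and 752 CPM, the log2 fold change was 1.19 ± 0.08 (edgeR adjusted p = 2.1e-06). Against the Clec10a/Cd209a-only cells, at 1357 and 1243 CPM, it was 0.21 ± 0.08 (edgeR adjusted p = 0.15, and 0.046 with the sample as a block). In the share of cells with an Il1b UMI the Clec10a/Cd209a-only cells stood above the Il1r2+ cells in sample 1 and below them in sample 2. Thinned to 5000 UMIs a cell, it was 74.3% and 78.4% in the Il1r2+ cells, 65.0% and 65.1% in the Il1r2- cDC2s, 48.5% and 52.5% in the Clec4a4-only cells and 83.2% and 75.3% in the Clec10a/Cd209a-only cells. Before thinning, which left out 29 Il1r2+ cells and 39 Il1r2- cDC2s, those shares were 80.1% and 80.4%, 69.8% and 72.6%, 53.1% and 62.1%, and 86.3% and 78.7%. Cells left out only by Cd3e, which should lack the gene, held an Il1b UMI in 18.8% and 11.4%, with medians of 5490 and 6065 UMIs a cell.

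The signalling partners of interleukin-1 were close to the detection limit in the same cells. Il1r1, the signalling receptor, had 0 UMIs in sample 1 and 1 in sample 2, where a count of 0 allows up to 1.05 CPM in sample 1. Il1rap, the co-receptor, stood at 3.50 and 2.98 CPM and Il1rn, the secreted receptor antagonist, at 4.55 and 10.3 CPM. Il1a, the gene of interleukin-1α, had 1.75 CPM in sample 1 and 0 in sample 2. Il1rl1 and Il1rl2, receptors for interleukin-33 and interleukin-36, were at 0 in both samples, which allows up to 1.05 and 0.993 CPM. Il18, another inflammasome substrate, stood at 43.1 and 35.1 CPM against 32.1 and 39.0 in the Il1r2- cDC2s, with overlapping groups (edgeR adjusted p = 0.80). Of the 4 members of the interleukin-1 receptor list that could be tested, Il1r2 left aside, 0 were called in edgeR against the Il1r2- cDC2s. Over all genes 0.620% were higher and 0.455% lower.

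Some genes of the inflammasome, the sensor complex that activates caspase-1, were higher in the Il1r2+ cells. Of 14 listed genes, all tested, 4 were higher and 0 lower against the Il1r2- cDC2s, where 0.620% of all genes were higher, and the median log2 fold change was 0.32 against -0.01 over all genes. Nlrp3, the sensor of membrane damage and ion efflux, stood at 273 and 314 CPM against 194 and 224 (log2 fold change 0.52 ± 0.10, edgeR adjusted p = 0.033), without overlap of the groups. Nlrp1a, a sensor of the NLRP1 family, stood at 45.2 and 53.9 against 24.4 and 29.3 CPM (0.92 ± 0.17, edgeR adjusted p = 0.025). Aim2, the sensor of cytosolic DNA, stood at 291 and 301 against 224 and 214 CPM (0.45 ± 0.08, edgeR adjusted p = 0.021). Mefv, the gene of pyrin, stood at 138 and 137 against 95.7 and 104 CPM, at the edge of the threshold (0.49 ± 0.11, edgeR adjusted p = 0.0498). All 4 were non-overlapping between the groups, which a call on the same sums makes likely. Restricting both groups to cells of like depth raised the edgeR adjusted p to 0.091 for Aim2, 0.079 for Nlrp1a and 0.11 for Mefv. Casp1, the caspase itself, at 101 and 104 against 96.3 and 88.3 CPM, and the adaptor Pycard, at 38.9 and 40.7 against 53.5 and 51.5 CPM, did not pass the test (edgeR adjusted p = 0.62 and 0.30).

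Set against the Clec4a4-only and the Clec10a/Cd209a-only cells separately, Nlrp3 and Nlrp1a were higher than in both. Nlrp3 stood at 190 and 218 CPM in the Clec4a4-only cells (log2 fold change 0.58 ± 0.11, edgeR adjusted p = 0.013) and at 188 and 223 in the Clec10a/Cd209a-only cells (0.50 ± 0.13, adjusted p = 0.046). Nlrp1a stood at 20.02 and 32.7 CPM (1.00 ± 0.23, edgeR adjusted p = 0.040) and at 21.6 and 23.5 CPM (adjusted p = 0.018). Mefv and Aim2 were higher than in the Clec4a4-only cells, at 64.3 and 85.3 CPM (0.95 ± 0.15, edgeR adjusted p = 0.0040) and 207 and 221 CPM (0.52 ± 0.10, adjusted p = 0.011). Against the Clec10a/Cd209a-only cells their fold changes were 0.19 and 0.41 and did not pass. There, Nlrc4, a sensor of bacterial flagellin, was higher (0.72 ± 0.19, edgeR adjusted p = 0.043) and Pycard lower (-0.72 ± 0.19, adjusted p = 0.047). In DESeq2 the calls against the Clec10a/Cd209a-only cells were lost for Nlrp3, Nlrp1a, Nlrc4 and Pycard, with adjusted p = 0.10, 0.10, 0.15 and 0.26, as was that of Nlrp1a against the Clec4a4-only cells, with 0.12.

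**Figure D2:**
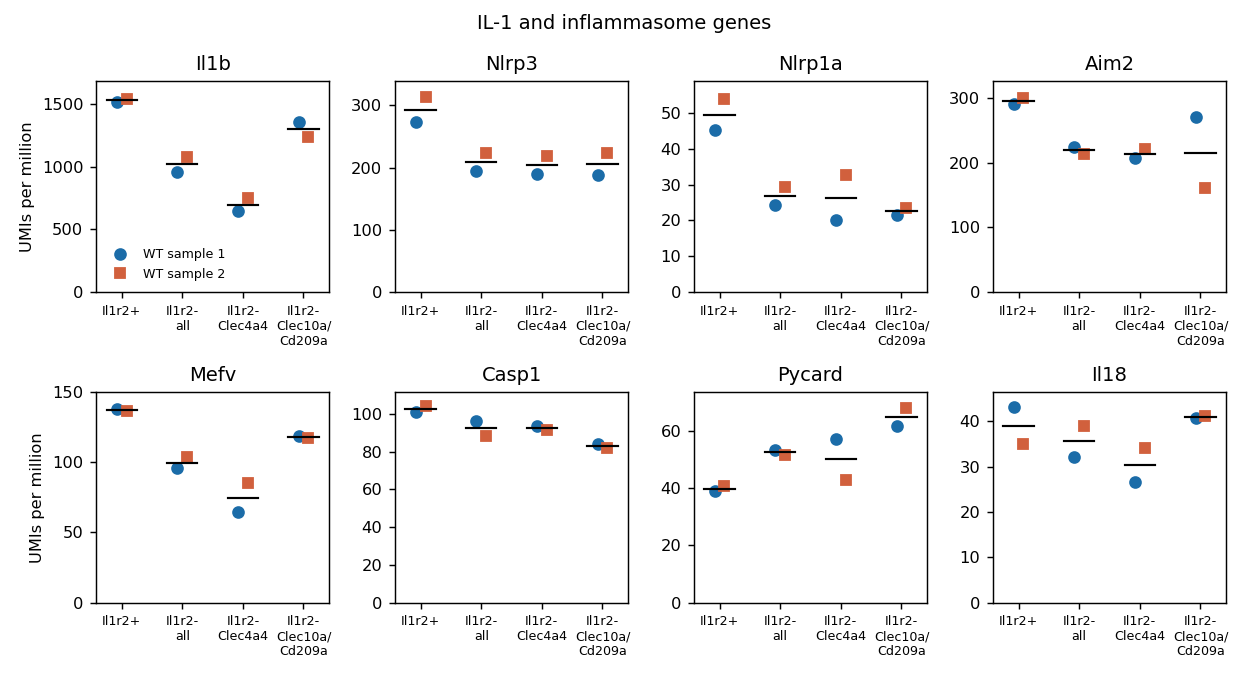
Levels, in CPM, of interleukin-1 and inflammasome genes in the Il1r2+ cells and the 3 sets of Il1r2- cDC2s, with 1 point for each of the 2 samples and each axis starting at 0. Il1b in the Il1r2+ cells (1518 and 1547) was above the Il1r2- cDC2s (963 and 1077) and nearest to the Clec10a/Cd209a-only cells (1357 and 1243), whereas Nlrp3 (273 and 314) was above all 3.

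Few genes of the signalling path downstream of the interleukin-1 receptor differed. Of 20 listed genes tested, 0 were higher and 1 lower against the Il1r2- cDC2s, where 0.455% of all genes were lower. The lower gene was Nfkbia, of the NF-κB inhibitor IκBα, which stood at 280 and 265 CPM against 409 and 378 (log2 fold change -0.51 ± 0.08, edgeR adjusted p = 0.011). It was also lower against the Clec10a/Cd209a-only cells, at 619 and 497 CPM (-1.06 ± 0.12, edgeR adjusted p = 0.00015), and not called against the Clec4a4-only cells, at 348 and 333 CPM (adjusted p = 0.17). Relb, an NF-κB subunit, stood at 305 and 285 CPM against 458 and 467 in the Clec4a4-only cells (-0.60 ± 0.08, edgeR adjusted p = 0.0020). Against the Il1r2- cDC2s as a whole, Relb was not called (adjusted p = 0.22).

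Interferon-response genes, by which these cells had been described in the earlier clustering, separated them only weakly from the Il1r2- cDC2s. Ifit1, an inhibitor of viral RNA translation, stood at 38.9 and 30.8 CPM in the Il1r2+ cells and at 30.9 and 21.2 in the Il1r2- cDC2s, and Oasl2, a member of the oligoadenylate synthetase family, at 117 and 83.1 against 64.4 and 72.4. Ifit1 overlapped between the groups, and Oasl2 did not. Of 57 tested genes of the list, 1 was higher and 0 lower, where 0.620% of all genes were higher and 0.455% lower. The higher gene was Epsti1, at 401 and 403 CPM against 311 and 288 (log2 fold change 0.45 ± 0.07, edgeR adjusted p = 0.016, and 0.21 when cells were thinned before selection). Over the list the median log2 fold change was 0.18, and 44 of the 57 were above 0. With the sample as a block, 7 were higher and 2 lower, against 335 and 195 of 10322 over all genes. These genes are no independent evidence of a direction, since the earlier clustering had used them.

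The counts of interferon genes called were not the same against the Clec4a4-only and the Clec10a/Cd209a-only cells. The difference between these comparisons was not tested. Against the Clec4a4-only cells, 6 of 55 were higher and 0 lower in edgeR (median 0.36), where 1.29% of all genes were higher, Oasl2 and Epsti1 among them together with Rtp4, Ifi207, Ifi213 and Ifih1, the last a sensor of double-stranded RNA. Ifi207, a PYHIN protein, stood at 118 and 101 CPM against 54.5 and 51.8 (log2 fold change 1.09 ± 0.15, edgeR adjusted p = 0.0017). Against the Clec10a/Cd209a-only cells, 2 of 56 were higher and 4 lower (median -0.03), where 2.71% of all genes were higher and 2.93% lower, so that the number higher was near the share over all genes. Ddx58, the gene of the RNA sensor RIG-I, was higher, at 110 and 81.1 CPM against 60.7 and 49.3 (0.75 ± 0.20, edgeR adjusted p = 0.046), along with Ifit1, at 14.1 and 11.7 CPM in those cells. The lower genes were Ifi203, Slfn5, Lgals3bp and Bst2, the last the gene of tetherin, which stood at 16.1 and 26.5 CPM against 47.4 and 50.5 (-1.21 ± 0.28, adjusted p = 0.021). Bst2 is also 1 of 9 plasmacytoid dendritic cell markers. Their sum was 173 and 205 CPM in the Il1r2+ cells against 442 and 432 in the Clec10a/Cd209a-only cells, and the part of such RNA was not tested. Ifi203 had a log2 fold change of -0.82, and -0.99 without replicate 1 and -0.54 without replicate 2. Slfn5 had -0.74, and -0.90 and -0.49 in the same order. Per cell, thinned to 5000 UMIs, the median sum over the list was 20 and 21 UMIs in the Il1r2+ cells, 19 and 18 in the Il1r2- cDC2s, 18 and 17 in the Clec4a4-only cells and 22 and 21 in the Clec10a/Cd209a-only cells.

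Outside these lists, the gene with the largest called rise at 50 CPM or more was Adgrl3, an adhesion receptor of the latrophilin family, at 779 and 682 CPM against 425 and 392 (log2 fold change 0.86 ± 0.08, edgeR adjusted p = 0.00040). It was also higher against the Clec4a4-only cells, at 405 and 405 CPM (0.90 ± 0.08, adjusted p = 6.5e-05), and against the Clec10a/Cd209a-only cells, at 391 and 256 CPM (1.14 ± 0.15, adjusted p = 0.00059). Abcb1a, a drug efflux pump, and Ahr, the aryl hydrocarbon receptor, were likewise called in each of the 3 comparisons. Abcb1a stood at 223 and 207 CPM against 127 and 125 in the Il1r2- cDC2s (0.79 ± 0.09, edgeR adjusted p = 0.0021), and Ahr at 174 and 171 against 92.9 and 121 (0.72 ± 0.13, adjusted p = 0.019). Rgs1, a regulator of chemokine receptor signalling, stood at 1222 and 1309 CPM against 965 and 831 (0.52 ± 0.07, edgeR adjusted p = 0.0056). Hpgds, the prostaglandin D synthase of blood cells, stood at 105 and 101 CPM against 68.0 and 48.1 (0.83 ± 0.15, edgeR adjusted p = 0.019, and 0.067 in cells of like depth). For each of these genes the 2 groups did not overlap, which a call on the same sums makes likely. The other high-fold genes included the cyclin gene Ccnd2, the adaptors Cass4 and Scimp, and the transcription factor Klf2.

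The genes lower in the Il1r2+ cells than in the Il1r2- cDC2s included those of monocytes and of monocyte-like cDC2s. This did not hold against the Clec4a4-only cells. There, 1 of 9 tested genes of the monocyte-like cDC2 list was higher and 0 lower, where 1.29% of all genes were higher, with a median log2 fold change of 0.32. Against the Il1r2- cDC2s, 4 of 11 tested genes of the list were lower and 0 higher, where 0.455% of all genes were lower, with a median of -0.72. Ccr2, the receptor by which monocytes leave the bone marrow, stood at 17.2 and 16.5 CPM against 63.6 and 82.7 (-2.08 ± 0.18, edgeR adjusted p = 0.00040). Cx3cr1, the fractalkine receptor, stood at 16.8 and 29.4 CPM against 55.5 and 56.8 (-1.25 ± 0.21, edgeR adjusted p = 0.016), and the inhibitory lectin Clec12a at 16.5 and 22.5 against 55.9 and 38.1. The fold change of Clec12a was -1.26 ± 0.22 (edgeR adjusted p = 0.019), -0.72 without replicate 1 and -1.71 without replicate 2. Ccl9, a chemokine, was lower as well, with a log2 fold change of -1.76 (edgeR adjusted p = 0.00098). Sox4 and Spib, transcription factors, and Fscn1, an actin bundler of mature dendritic cells, were lower by the same test, at -1.40, -1.02 and -1.19, and DESeq2 did not call Sox4 and Fscn1 (adjusted p = 0.52 and 0.45).

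Other monocyte markers were lower in sum than in the Il1r2- cDC2s. The 9 monocyte markers, Ccr2 among them, summed to 153 and 185 CPM in the Il1r2+ cells and 275 and 310 in the Il1r2- cDC2s, with Vcan at 0 in the Il1r2+ cells. Without Ccr2, left out after the values had been seen, the sums were 136 and 168 against 211 and 227. The 9 plasmacytoid dendritic cell markers summed to 173 and 205 against 264 and 296. The 8 markers of mature dendritic cells summed to 93.1 and 95.3 against 178 and 159, but overlapped without Fscn1 and Il4i1, at 32.9 and 31.4 against 49.9 and 28.1. In the Clec10a/Cd209a-only cells the monocyte markers reached 605 and 706 CPM. In the Clec4a4-only cells they summed to 125 and 143 CPM, below the Il1r2+ cells in both samples. The part of these classes in the differences was not tested, but without the 26 Il1r2- cDC2s and 11 Il1r2+ cells that held 3 or more UMIs of a short list of plasmacytoid, NK, basophil or monocyte genes, 94 genes were called in edgeR.

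Against the Clec4a4-only cells, 129 of 9971 genes were higher (1.29%) and 54 lower (0.542%) in edgeR. Immediate early genes, which answer acute stimulation or cell handling, were higher for 7 of 20 listed genes and lower for 0, with a median log2 fold change of 0.34. Atf3, a stress-induced repressor, stood at 247 and 228 CPM against 70.3 and 95.5 (1.59 ± 0.14, edgeR adjusted p = 6.5e-05), and Egr1, an early growth response factor, at 592 and 659 against 319 and 437 (0.79 ± 0.12, adjusted p = 0.0030). Of 12 genes of the MHC class II path, 5 were higher and 0 lower (median 0.23), H2-Aa, H2-Ab1, H2-Eb1, H2-DMa and the invariant chain Cd74. H2-Ab1 stood at 10765 and 11287 CPM against 9202 and 9528 (0.29 ± 0.04, edgeR adjusted p = 0.0037). Cd4, a coreceptor found on Notch-dependent cDC2s, stood at 283 and 338 CPM against 199 and 248 (0.53 ± 0.12, edgeR adjusted p = 0.035).

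Several transcription and maturation genes were lower than in the Clec4a4-only cells. Tcf7, a transcription factor of the Wnt path, stood at 11.9 and 16.5 CPM against 71.7 and 62.1 (-2.18 ± 0.22, edgeR adjusted p = 0.00018). Dtx1, the Notch target Deltex, stood at 250 and 232 CPM against 427 and 410 (-0.75 ± 0.09, edgeR adjusted p = 0.00063). Fscn1 stood at 23.8 and 44.3 CPM against 120 and 113 (-1.71 ± 0.21, edgeR adjusted p = 0.00081), and Il4i1, a secreted amino acid oxidase, at 36.4 and 19.5 against 68.9 and 53.2 (-1.10 ± 0.25, adjusted p = 0.032). Each of the 4 genes was lower in both samples without overlap, which a call on the same sums makes likely. Of 15 tested genes of dendritic cell maturation, 4 were lower and 0 higher, where 0.542% of all genes were lower.

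Against the Clec10a/Cd209a-only cells, 263 of 9695 genes were higher (2.71%) and 284 lower (2.93%) in edgeR, and 489 and 477 with the sample as a block. Of 11 tested genes of the monocyte-like list, 8 were lower and 0 higher, with a median log2 fold change of -2.12. Ccr2 stood at 209 and 278 CPM in those cells (-3.86 ± 0.19, edgeR adjusted p = 3.0e-07) and Csf1r, the receptor of macrophage colony-stimulating factor, at 252 and 258 against 98.7 and 109 (-1.32 ± 0.13, adjusted p = 5.7e-05). Lyz2, the lysozyme gene, stood at 58.1 and 227 CPM against 664 and 973 (-2.53 ± 0.39, edgeR adjusted p = 0.0019, and 0.11 in DESeq2). Cd8a stood at 3.85 and 3.97 CPM against 83.2 and 135 (-4.78 ± 0.32, edgeR adjusted p = 2.2e-06). For these genes the Il1r2+ cells were the lower group in both samples. Of the 12 MHC class II genes, 6 were lower and 0 higher (median -0.22), and H2-Aa stood at 11266 and 11954 CPM against 13586 and 13954 (-0.27 ± 0.05, edgeR adjusted p = 0.0085).

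Genes of the Notch-dependent type were higher than in the Clec10a/Cd209a-only cells for 4 of 12 tested and lower for 0, where 2.71% of all genes were higher. The median log2 fold change of the list was 0.26. Dtx1 stood at 79.0 and 65.7 CPM in those cells (1.70 ± 0.15, edgeR adjusted p = 2.2e-05), against 250 and 232 CPM in the Il1r2+ cells. The Il1r2+ cells hold both lectin types and each comparison set holds 1, and the part of this selection in the differences was not tested. The other 3 Notch-type genes called were Cd4, Rgs1 and Esam, the endothelial adhesion molecule that names the type. Esam had a fold change of 1.36 ± 0.37 (edgeR adjusted p = 0.047), 2.65 without replicate 1 and 0.78 without replicate 2. Of 15 tested costimulation and checkpoint genes, which act on T cells, 4 were higher and 3 lower, with a median log2 fold change of -0.09. Over all genes, 2.71% were higher and 2.93% lower. Among the higher genes, Cd80 stood at 197 and 237 CPM against 109 and 126 (0.87 ± 0.15, edgeR adjusted p = 0.0037), and Cd274, the gene of PD-L1, at 249 and 251 against 156 and 172 (0.59 ± 0.13, adjusted p = 0.015).

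**Figure D3:**
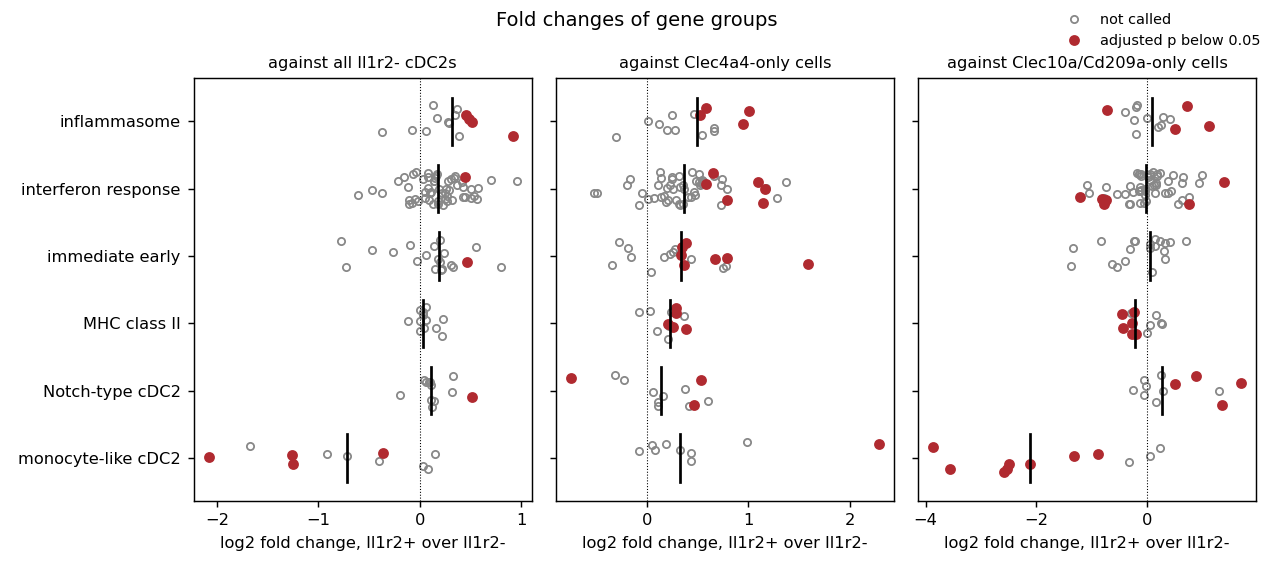
Log2 fold changes of the Il1r2+ cells over the Il1r2- cDC2s, the Clec4a4-only cells and the Clec10a/Cd209a-only cells for each tested gene of 6 lists, with filled points for adjusted p below 0.05 (edgeR), black bars for medians and a different axis range in each panel. Inflammasome genes had medians of 0.32, 0.49 and 0.10, and monocyte-like genes had medians of -0.72, 0.32 and -2.12, in the same order.

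Across classes of cells by Il1r2 count, Adgrl3 was ordered throughout. In the classes at 0, 1, 2, 3 to 4, 5 to 9 and 10 or more Il1r2 UMIs, it stood at 425, 506, 659, 707, 779 and 1712 CPM in sample 1 and at 392, 478, 592, 630, 713 and 974 CPM in sample 2. Each class was thus above the one before in both samples. Adgrl3 had been picked for its rise over the Il1r2- cDC2s, which are the class at 0, so that the rise from that class adds no support. The classes above 0 needed no lectin gene. In the split of the Il1r2+ cells given below, Adgrl3 was not called in edgeR. Il1b stood at 963, 1203, 1387, 1511, 1458 and 2397 CPM in sample 1 and at 1077, 1203, 1425, 1129, 1965 and 1835 CPM in sample 2. It was above the Il1r2- cDC2s in every class, but without a steady order above 2 UMIs. Nlrp3 likewise had no steady order, at 194, 229, 226, 298, 269 and 374 CPM in sample 1 and 224, 228, 297, 255, 382 and 324 CPM in sample 2. Ccr2 stood at 63.6 and 82.7 CPM in the Il1r2- cDC2s, at 41.1 and 27.1 at 1 UMI, between 3.38 and 29.7 in the classes from 2 to 9 UMIs, without order, and at 0 in the 17 and 25 cells at 10 or more. Rgs1 stood highest in the top class, at 2231 and 1810 CPM. The summed interferon list showed no order, at 4717 and 4625 CPM in the Il1r2- cDC2s, 4833 and 5055 at 2 UMIs and 6512 and 4918 at 10 or more. These classes were formed on Il1r2 counts, which rise with depth, and the median depth of the top class was 10986 and 13229 UMIs against 10007 and 9653.

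**Figure D4:**
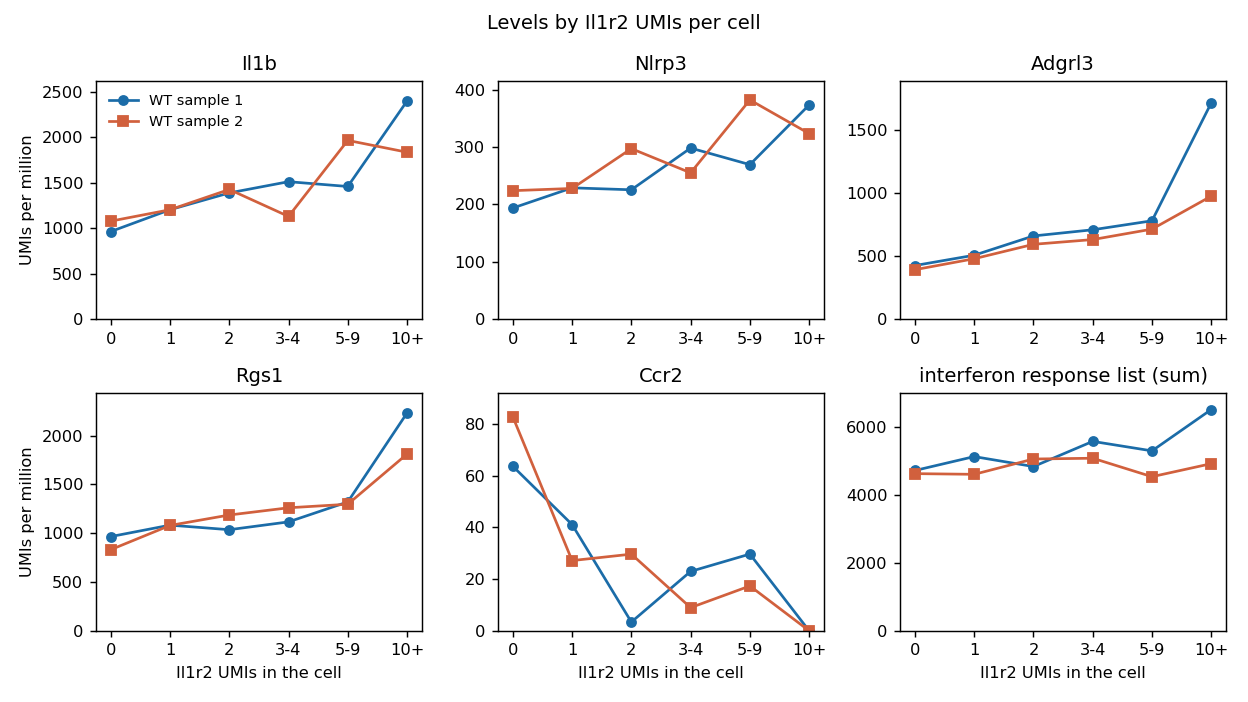
Levels, in CPM, against the number of Il1r2 UMIs per cell (0, 1, 2, 3 to 4, 5 to 9, 10 or more), with 1 line for each of the 2 samples. Adgrl3 stood highest in the 10 or more class (1712 and 974), which held 17 and 25 cells, whereas Il1b did so in sample 1 (2397) and not in sample 2, where the 5 to 9 class was higher (1965 against 1835).

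A split of the Il1r2+ cells themselves, at the median of Il1r2 per UMI within each sample, used the gene that chose them and is given as a description. In edgeR 1 of 9066 genes was higher in the upper group (0.0110%), Malat1, a nuclear RNA, at 4543 and 4245 CPM against 3165 and 3130 (log2 fold change 0.48 ± 0.06, adjusted p = 0.041), and 0 were lower, where 316 and 227 genes had an unadjusted p below 0.05. With the sample as a block 53 were higher and 18 lower. Il1b stood at 1567 and 1882 CPM in the upper group against 1479 and 1279 in the lower, without overlap (0.32 ± 0.10, edgeR adjusted p = 0.65, and 8.3e-05 with the block). A minimum of 2 Il1r2 UMIs gives shallow cells a higher value per UMI, so that the split was in part one of depth. The upper group was shallower, at a median of 9496 and 9474 UMIs against 12481 and 11809, and the part of depth in these differences was not tested. In cells of like depth Malat1 did not pass the test (edgeR adjusted p = 0.11).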

How the data were processed

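The deposited values are UMI counts per gene and cell, without normalization, which the authors obtained from the BD Rhapsody pipeline (WTA, version 1.12.1) on GRCm38 with GENCODE vM19, intronic reads included. The submitters' processing notes also name Seurat 4.3.0.1 and R 4.2.3, whose output was not used here. Cells were selected by the stated limits in Python 3.11.15, and UMIs were summed per sample. The members and gene lists were chosen with earlier results of these data known. The 13 selection genes were removed before each fit. Sums were compared with edgeR 4.0.16 in R 4.3.3 (TMM, filterByExpr, quasi-likelihood test, Benjamini-Hochberg adjustment at 0.05). Standard errors were taken as the absolute log2 fold change divided by the root of its F statistic. The code was tested on simulated data. Alternatives were DESeq2 1.42.0, RLE scaling, no count filter, filters on cells, other Il1r2 minimums and thinning. No doublets were removed. Scrublet (scanpy 1.11.5) gave doublet calls.

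The text names genes of the lists and, per comparison, the 15 largest called changes in each direction with 50 CPM or more in the higher group, predicted genes and antigen receptor segments left out. A pair of sums comes from the same sample, so samples pair them by construction. The deviations of paired sums correlated across genes at 0.19, 0.12, 0.12 and 0.10 in the 4 comparisons. The Il1r2+ sums of the 2 samples differed by more than counting noise (chi-square over degrees of freedom 2.66). The median cell held 11870 UMIs in sample 1 and 11241 in sample 2.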

Additional observations from a re-analysis of the deposited data

Results flagged for a closer look

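Il1r2 was measured in cells that no comparison used. The limits on other genes left out 479 cells with 2 or more Il1r2 UMIs, 218 in sample 1 and 261 in sample 2, nearly as many as the 521 that were kept. Clec9a or Xcr1 alone left out 123 and 131 of them, Ccr7 alone 27 and 26, and the cycling genes alone 25 and 30.

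The cells left out by S100a9 alone had a mean Il1r2 level of 647 CPM over both samples (439 and 855), above the 392 and 454 CPM of the Il1r2+ cells and the 6.32 and 5.77 CPM of the C1qb-rich cells. They numbered 9 and 22, with a median of 2997 and 3977 UMIs, and Il1b stood at 4389 and 6287 CPM in them.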

How the results depend on the processing

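The 2 samples and the depth of each sum limit these results. Without replicate 1 or 2 no test was possible. The direction held for each of the 111, 183, 547 and 1 genes called, but a call on the same 2 samples makes this likely, so that it adds no support. The share of Il1r2+ cells, 8.17% over both samples, was 8.75% without replicate 1 and 7.59% without replicate 2. It was 12.5% with a minimum of 1 Il1r2 UMI, 4.09% with 4 and 6.04% after thinning.

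Against the Il1r2- cDC2s the 111 calls became 318 without a filter on low counts, 73 in cells of like depth and 262 when the comparison cells needed no lectin gene. Against the Clec4a4-only cells the 183 calls became 410 without the filter, 112 in DESeq2 and 98 with a minimum of 1 Il1r2 UMI. Against the Clec10a/Cd209a-only cells the 547 calls became 847 without the filter and 264 in DESeq2. In the split by Il1r2 the 1 call became 46 without the filter, 4 in DESeq2 and 0 in edgeR on cells within 3 median absolute deviations. The cause of these changes was not tested. With the sample as a replicate block the counts were 530, 196, 966 and 71. No result reversed. Of the named genes called against the Il1r2- cDC2s, 45 kept direction and call under the block, 35 in cells of like depth with 10 weaker, and 31 after thinning with 14 weaker. In DESeq2, 33 of the 96 named genes with an adjusted p were weaker against the Clec10a/Cd209a-only cells.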

Other observations

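Cells that the limits had left out allowed the same split by Il1r2 in other dendritic cells, added after the data had been seen and given as values with no test. Among cells with 2 or more Ccr7 UMIs, Il1b stood at 1314 and 945 CPM in the 27 and 33 cells with 2 or more Il1r2 UMIs, against 645 and 516 in the 142 and 217 with none. Nlrp3 stood at 219 and 132 CPM against 64.0 and 45.0 in the same cells, and Mefv at 184 and 134 against 52.4 and 58.8. The groups also differed in other markers. Those of mature dendritic cells, Ccr7 among them, summed to 1750 and 1369 CPM with Il1r2 and to 5118 and 4294 without. The cDC2 markers summed to 1202 and 1287 CPM with Il1r2 and to 795 and 615 without. The cells without Il1r2 also held more T-cell and B-cell RNA, with T-cell markers summing to 732 and 1394 CPM against 65.1 and 259. The part of these differences in the values was not tested.

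In cells that met every limit but held 1 Clec9a or Xcr1 UMI, Il1b stood at 1525 and 1482 CPM in the 54 and 56 cells with 2 or more Il1r2 UMIs. It stood at 1501 and 1003 in the 116 and 69 with none and a cDC2 lectin. Nlrp3 stood at 223 and 287 CPM against 208 and 216.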
